A study of Mus musculus with 11 samples.

Results

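The genes described here are 9 transcription factors of mature hormone-producing cells, Isl1, Pax6, Etv1, Hhex, Foxa1, Foxa2, St18, Myt1 and Mnx1. They were taken by name from a table of 38283 mouse genes and followed through 11 RNA libraries. The libraries came from duodenal epithelium that was digested to single cells and sorted by a fluorescent reporter. NeuroD1 positive cells (3 libraries) and NeuroD1 negative cells (3 libraries) came from the strain Neurod1-cre-eYFP, in which Cre under Neurod1 switches on a yellow fluorescent protein, so that a cell stays marked once the Cre has acted. Glu positive cells (3 libraries) and Glu negative cells (2 libraries) came from the strain GluVenus, in which a transgene with proglucagon regulatory sequence drives the Venus protein. Mice of both strains had standard chow and water freely available, and their age and sex were not given in the labels. Each library carries a number, and nothing in the labels ties a number to a separate animal, so the p-values describe variation among libraries only.

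Enteroendocrine cells are scattered hormone-secreting cells of the gut lining that arise from crypt progenitors under Neurog3 and then Neurod1. As they mature, further DNA-binding proteins set and maintain which hormone a cell makes. Isl1 (LIM-homeodomain) and Pax6 (paired and homeodomain) act in hormone cells of gut and pancreas, and Pax6 activates the glucagon gene in mouse. Foxa1 and Foxa2 are forkhead proteins that open closed chromatin, Hhex is a homeodomain protein needed by somatostatin-producing delta cells of the mouse pancreas, and Mnx1 is a homeodomain protein of motor neurons and pancreatic beta cells. Etv1 belongs to the ETS family, and St18 and Myt1 are zinc-finger proteins of the same small family.

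Promoter sequence is shown for 4 of the genes, a pair that was higher in both sorted populations (Isl1, Pax6) and a pair that differed most between those populations (Hhex, Mnx1). The sequences are RefSeq's on GRCm38.p6, read 5′ to 3′ on the gene's strand, and hold the 250 bases before the annotated start, cut at the start of the gene in GENCODE. Capitals mark the E-box CANNTG, the class of site that NeuroD1 and related proteins bind. The regions are chr13:116309690-116309938 (minus strand, Isl1), chr2:105668646-105668895 (plus strand, Pax6), chr19:37434591-37434809 (plus strand, Hhex) and chr5:29478471-29478720 (minus strand, Mnx1).
Isl1: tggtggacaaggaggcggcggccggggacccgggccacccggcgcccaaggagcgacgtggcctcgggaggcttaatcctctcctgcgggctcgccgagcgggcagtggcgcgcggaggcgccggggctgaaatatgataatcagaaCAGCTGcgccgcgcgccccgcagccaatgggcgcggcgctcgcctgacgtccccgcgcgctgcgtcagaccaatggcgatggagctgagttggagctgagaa
Pax6: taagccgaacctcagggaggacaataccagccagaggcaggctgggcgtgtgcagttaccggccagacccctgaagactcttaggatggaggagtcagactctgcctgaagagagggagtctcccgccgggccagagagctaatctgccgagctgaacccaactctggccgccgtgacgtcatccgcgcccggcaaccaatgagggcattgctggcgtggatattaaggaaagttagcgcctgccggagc
Hhex: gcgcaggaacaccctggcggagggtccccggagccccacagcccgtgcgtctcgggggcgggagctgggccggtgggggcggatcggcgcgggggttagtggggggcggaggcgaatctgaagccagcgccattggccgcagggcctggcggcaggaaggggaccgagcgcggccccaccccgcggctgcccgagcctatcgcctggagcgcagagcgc
Mnx1: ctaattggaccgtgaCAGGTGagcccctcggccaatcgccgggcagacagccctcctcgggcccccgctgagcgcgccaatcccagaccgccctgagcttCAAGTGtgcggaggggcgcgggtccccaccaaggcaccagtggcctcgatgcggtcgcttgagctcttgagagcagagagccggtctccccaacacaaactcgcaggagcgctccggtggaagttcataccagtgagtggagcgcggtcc
An E-box on either strand (CANNTG reads the same on both) was found in the windows of Isl1, Foxa1 and Mnx1, 3 of the 8 genes with a window, and in 66.2% of 32851 promoter windows of the same length. The narrower E-box CAGATG, which is contained in CANNTG, was in 0 of the 8 windows and in 14.4% of all windows. The forkhead motif TGTTTAC was in the Foxa1 window and in 3.17% of all windows, and the homeodomain motif TAATTA in 0 of the 8 and in 4.84%. The windows of Foxa1 and Etv1 follow RefSeq starts that lie inside the gene as GENCODE has it, so all of their bases are within that gene. These matches describe letters in the windows and do not show binding.

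Levels are CPM (counts of a gene per 1000000 counts of the library) with TMM, a factor that makes libraries of different composition comparable. Libraries carry the names of the labels, and levels are listed in the order NeuroD1_positive_6360, NeuroD1_positive_6361 and NeuroD1_positive_6362, likewise for NeuroD1_negative, then Glu_positive_5254, Glu_positive_5160 and Glu_positive_4665, and Glu_negative_5254 and Glu_negative_4665. Log2 fold changes are positive over negative cells with their SE, and a gene was called when its p, adjusted by Benjamini-Hochberg over 14332 genes in the quasi-likelihood test of edgeR, was under 0.05. Totals were 2279595 to 5722381 counts per library. Of mitochondrial ribosomal RNA, mt-Rnr1 and mt-Rnr2 took 27.5% to 33.9% of the counts in 5 libraries, among them all NeuroD1 positive ones, and are listed at 0 in the others, among them all Glu libraries. Leaving both genes out changed no call of the 9 genes. Neurod1 and Gcg, the genes behind the reporters, were called higher among positive cells in both strains, and the summed level of 7 enteroendocrine markers was 39723 to 58286 CPM in NeuroD1 positive against 1890 to 2238 CPM in NeuroD1 negative cells. That sum was 8939 to 26353 CPM in Glu positive cells, against 883 to 1079 CPM in Glu negative cells. Most of each sum was the granin gene Chgb, with 34406 to 52620 CPM in NeuroD1 positive and 6019 to 22293 CPM in Glu positive libraries. In bulk RNA a lower level can come from fewer cells of a type or from less RNA per cell, and the 2 cannot be told apart.

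The first question was which of the 9 genes mark the sorted cells. All 9 were called higher in NeuroD1 positive than in NeuroD1 negative cells, and all 9 had every positive library above every negative one. Among all tested genes, 6.57% were called higher and 18.3% were separated in that way. The median log2 fold change of the 9 was 3.20, against 0.02 for all genes. In the Glu strain 5 of the 9 were called higher (Isl1, Pax6, Etv1, St18 and Myt1), against 4.22% of all genes. There 7 of the 9 had every positive library above every negative one, against 15.8% of all genes, and the median was 2.85 for the 9 and 0.12 for all genes.

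Markers of other cells moved with the sort. In NeuroD1 positive cells all 10 immune markers, all 5 Paneth markers and 5 of 6 enterocyte markers were called lower, against 7.61% of all genes. Summed immune markers stood at 704 to 1555 CPM in NeuroD1 positive and 17483 to 38271 CPM in NeuroD1 negative cells. The Glu strain had 7 of the 10 immune markers, 3 of 6 enterocyte markers and none of the Paneth markers lower, against 2.41% of all genes, and 1 enterocyte marker higher. There the immune sum was 1483 to 5125 CPM in Glu positive and 13615 to 91039 CPM in Glu negative cells. In both strains most of each sum was the immunoglobulin gene Igha, with 1228 to 4647 CPM in Glu positive libraries, against 11713 and 86886 CPM in Glu negative ones. Of the 10 immune markers only Ptprc and Cd3e overlapped between the Glu groups. Ptprc had 450, 95.4 and 68.2 CPM in Glu positive libraries, against 267 and 281 CPM in Glu negative ones. For Cd3e the levels were 544, 111 and 124 CPM against 359 and 388 CPM. The part of these cells in the differences of the 9 genes was not tested.

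**Figure D1:**
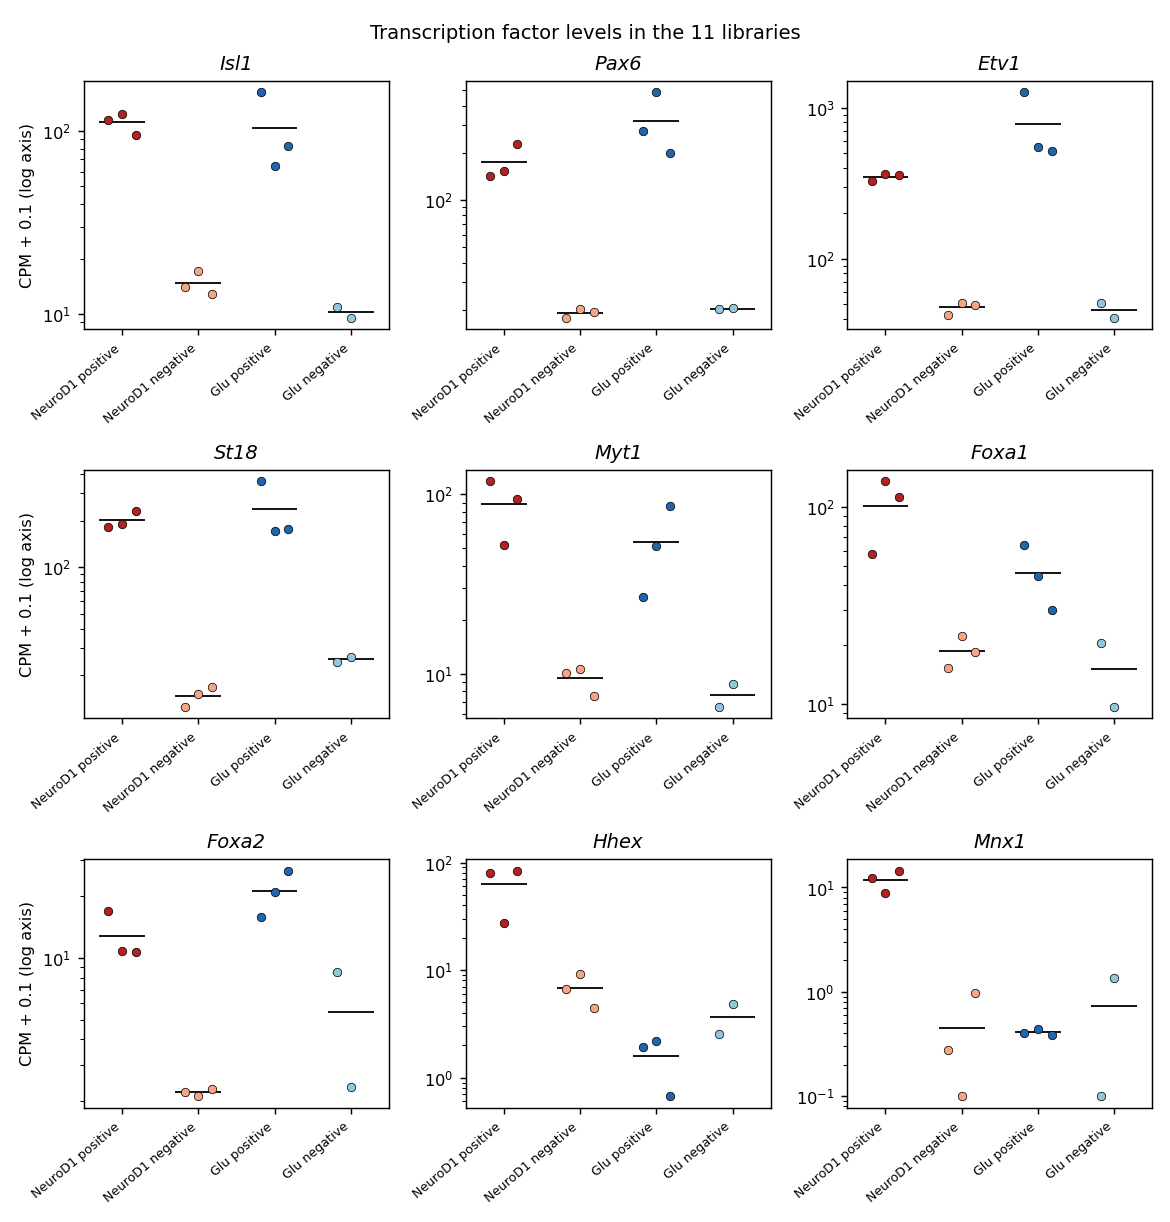
Level of each of the 9 genes in the 11 libraries, as CPM + 0.1 on a log axis, by sorted population. Each point is a library and each bar a group mean. Isl1, Pax6, Etv1, St18 and Myt1 are high in both positive populations, while Hhex and Mnx1 are high in NeuroD1 positive cells and do not exceed 2.07 CPM in any Glu positive library.

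Isl1 (chromosome 13, 116298281 to 116309689, minus strand, GRCm38) had 115, 124 and 95.4 CPM in NeuroD1 positive libraries, against 13.9, 17.1 and 12.7 CPM in NeuroD1 negative ones. It had 163, 64.4 and 83.0 CPM in Glu positive libraries, against 10.8 and 9.38 CPM in Glu negative ones. The groups did not overlap in either strain. Isl1 rose by 2.94 ± 0.42 in NeuroD1 positive cells (adjusted p = 9.2e-05 in edgeR) and by 3.35 ± 0.50 in Glu positive cells (adjusted p = 0.000418 in edgeR).

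Pax6 (chromosome 2, 105668900 to 105697364, plus strand), which overlaps the antisense gene Pax6os1, had 142, 154 and 227 CPM in NeuroD1 positive libraries, against 17.6, 20.1 and 19.2 CPM in NeuroD1 negative ones. In Glu positive libraries it had 277, 486 and 200 CPM, against 20.1 and 20.3 CPM in Glu negative ones. The negative libraries of both strains lay close together, and Glu_positive_5160 was the highest of the positives. The use of strand is not given in the sources used here, so reads of Pax6 and Pax6os1 cannot be told apart. Pax6 rose by 3.20 ± 0.38 in NeuroD1 positive cells (adjusted p = 2.1e-05 in edgeR) and by 3.99 ± 0.46 in Glu positive cells (adjusted p = 6.4e-05 in edgeR).

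Etv1 (chromosome 12, 38779380 to 38870484, plus strand) had 325, 366 and 359 CPM in NeuroD1 positive libraries, against 42.7, 51.2 and 49.3 CPM in NeuroD1 negative ones. Its levels were 1264, 550 and 517 CPM in Glu positive libraries, against 50.9 and 40.5 CPM in Glu negative ones. The NeuroD1 positive libraries were alike, while Glu_positive_5254 stood well above the other Glu positive libraries. Etv1 rose by 2.88 ± 0.36 in NeuroD1 positive cells (adjusted p = 3.3e-05 in edgeR) and by 4.09 ± 0.45 in Glu positive cells (adjusted p = 5.0e-05 in edgeR). Etv1 is also a gene of interstitial cells of Cajal, the pacemaker cells of gut muscle. None of 4 markers of those cells was called in either strain, and their summed level was 63.5 to 95.8 CPM in NeuroD1 positive and 33.6 to 81.1 CPM in NeuroD1 negative cells, with none at 0. It was 63.4 to 79.6 CPM in Glu positive and 80.3 to 88.0 CPM in Glu negative cells.

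St18 (chromosome 1, 6487231 to 6860940, plus strand) had 183, 190 and 230 CPM in NeuroD1 positive libraries, against 12.3, 15.1 and 16.6 CPM in NeuroD1 negative ones. It had 358, 172 and 178 CPM in Glu positive libraries, against 24.1 and 26.3 CPM in Glu negative ones. No positive library came near a negative one. St18 rose by 3.79 ± 0.38 in NeuroD1 positive cells (adjusted p = 3.5e-06 in edgeR), the smallest adjusted p of the 9 genes there, and by 3.22 ± 0.43 in Glu positive cells (adjusted p = 0.000171 in edgeR).

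Myt1 (chromosome 2, 181763332 to 181827797, plus strand), the relative of St18, had 118, 51.9 and 93.7 CPM in NeuroD1 positive libraries, against 10.1, 10.5 and 7.42 CPM in NeuroD1 negative ones. Glu positive libraries had 26.7, 51.3 and 85.5 CPM, against 6.41 and 8.68 CPM in Glu negative ones. The positive libraries of each strain differed among themselves more than for St18, and none overlapped the negatives. Myt1 rose by 3.23 ± 0.51 in NeuroD1 positive cells (adjusted p = 0.00026 in edgeR). It rose by 2.85 ± 0.58 in Glu positive cells (adjusted p = 0.0060 in edgeR), a call that was lost without Glu_negative_5254 (2.68, adjusted p = 0.116), without Glu_negative_4665 (3.12, adjusted p = 0.081) and with the Glu libraries fitted alone (2.80, adjusted p = 0.062).

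Isl1, St18 and Myt1 are also expressed in neurons. Of 8 markers of enteric neurons and glia, Hand2, Sox10 and S100b were among those at 0 in every library of both positive populations. The summed level of the 8 was 56.2 to 125 CPM in NeuroD1 positive and 6.53 to 15.9 CPM in NeuroD1 negative cells, and 80.8 to 112 CPM in Glu positive and 18.4 to 23.0 CPM in Glu negative cells. Ret, a receptor tyrosine kinase, held 48.5 to 116 CPM of it in NeuroD1 positive and 75.5 to 109 CPM in Glu positive cells, and was the 1 marker of the 2 tested that was called higher in each strain.

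Foxa1 (chromosome 12, 57540628 to 57546916, minus strand) had 57.3, 135 and 112 CPM in NeuroD1 positive libraries, against 15.2, 22.1 and 18.3 CPM in NeuroD1 negative ones. Its levels in Glu positive libraries were 63.7, 44.4 and 29.9 CPM, against 20.3 and 9.52 CPM in Glu negative ones. The groups were separate in both strains, with the smaller gap in Glu. Foxa1 rose by 2.46 ± 0.47 in NeuroD1 positive cells (adjusted p = 0.0015 in edgeR). In the Glu strain it stood at 1.63 ± 0.53, short of the threshold (adjusted p = 0.071 in edgeR), while it passed in DESeq2 (adjusted p = 0.029) and without Glu_positive_4665 (1.87, adjusted p = 0.040 in edgeR).

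Foxa2 (chromosome 2, 148042877 to 148046969, minus strand) was less abundant, with 16.9, 10.7 and 10.6 CPM in NeuroD1 positive libraries, against 2.11, 2.01 and 2.18 CPM in NeuroD1 negative ones. Glu positive libraries had 15.8, 21.0 and 26.6 CPM, against 8.40 and 2.24 CPM in Glu negative ones. The counts behind these levels were few, 124 over the NeuroD1 positive and 21 over the NeuroD1 negative libraries. Foxa2 rose by 2.58 ± 0.67 in NeuroD1 positive cells (adjusted p = 0.014 in edgeR). That call was lost without NeuroD1_positive_6360 (2.33, adjusted p = 0.054) and without any 1 of the NeuroD1 negative libraries (2.56 to 2.60, adjusted p = 0.053 to 0.065). In the Glu strain the log2 fold change was 2.00 ± 0.72 (adjusted p = 0.10 in edgeR), which passed in DESeq2 (adjusted p = 0.034) and limma voom (adjusted p = 0.037).

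Foxa1 and Foxa2 are also active in goblet cells, the mucus-secreting cells of the gut. Of 6 goblet markers, 4 were called lower and 1, Tff3, higher in NeuroD1 positive cells, against 7.61% and 6.57% of all genes, and their summed level was 824 to 1114 CPM in NeuroD1 positive and 2288 to 3211 CPM in NeuroD1 negative cells. In the Glu strain 1 of the 6 was lower, against 2.41% of all genes, and the sum was 1204 to 2710 CPM in Glu positive and 3103 to 4122 CPM in Glu negative cells. Fcgbp, Clca1, Zg16 and Spdef had every Glu positive library below every Glu negative one. The groups overlapped for the mucin gene Muc2, with 688, 341 and 144 CPM in Glu positive libraries, against 642 and 413 CPM in Glu negative ones. They also overlapped for Tff3, with 372, 174 and 365 CPM against 360 and 234 CPM. The share of all genes with every Glu positive library below every Glu negative one was not counted. The part of goblet RNA in the levels of Foxa1 and Foxa2 was not tested.

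Hhex (chromosome 19, 37434810 to 37440731, plus strand) had 79.3, 27.1 and 84.1 CPM in NeuroD1 positive libraries, against 6.52, 9.04 and 4.37 CPM in NeuroD1 negative ones. It had 1.82, 2.07 and 0.570 CPM in Glu positive libraries, against 2.43 and 4.76 CPM in Glu negative ones. Positive libraries were thus above the negatives in the NeuroD1 strain and below them in the Glu strain, where they held only 6, 6 and 4 counts. Hhex rose by 3.26 ± 0.63 in NeuroD1 positive cells (adjusted p = 0.0016 in edgeR). Its log2 fold change in the Glu strain was -1.37 ± 0.72 and missed the threshold (adjusted p = 0.26 in edgeR).

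Hhex is also a gene of endothelial cells. Of 7 endothelial markers, 6 were tested, 1 was called lower in NeuroD1 positive cells and none in Glu positive cells. Their summed level was 13.0 to 30.3 CPM in NeuroD1 positive and 39.7 to 98.3 CPM in NeuroD1 negative cells, the opposite direction to Hhex. In the Glu strain it was 23.1 to 51.6 CPM in Glu positive and 59.9 to 62.0 CPM in Glu negative cells, the same direction as Hhex. None of the 7 was at 0 in a whole group. The part of endothelial RNA in the Hhex level of the negative and Glu cells was not tested.

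Mnx1 (chromosome 5, 29473034 to 29478470, minus strand) was the least abundant of the 9 in CPM, with 12.1, 8.77 and 14.4 CPM in NeuroD1 positive libraries, against 0.176, 0 and 0.873 CPM in NeuroD1 negative ones. In Glu positive libraries it had 0.303, 0.344 and 0.285 CPM, against 0 and 1.26 CPM in Glu negative ones. No library outside the NeuroD1 positive group held more than 9 counts. The positives held 33, 23 and 68, against 1, 0 and 2 counts in NeuroD1 negative libraries, 1, 1 and 2 in Glu positive and 0 and 9 in Glu negative ones. The count of 0 in NeuroD1_negative_6361 allows up to 1.51 CPM and that in Glu_negative_5254 up to 0.663 CPM. Over the pooled counts Mnx1 was 40.9-fold higher in NeuroD1 positive cells, with an exact 95% interval of 13.7 to 201 that covers counting error only, and was called (adjusted p = 0.0065 in edgeR). In the Glu strain the ratio was 0.392 (0.0882 to 1.40) and it was not called (adjusted p = 0.64 in edgeR).

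**Figure D2:**
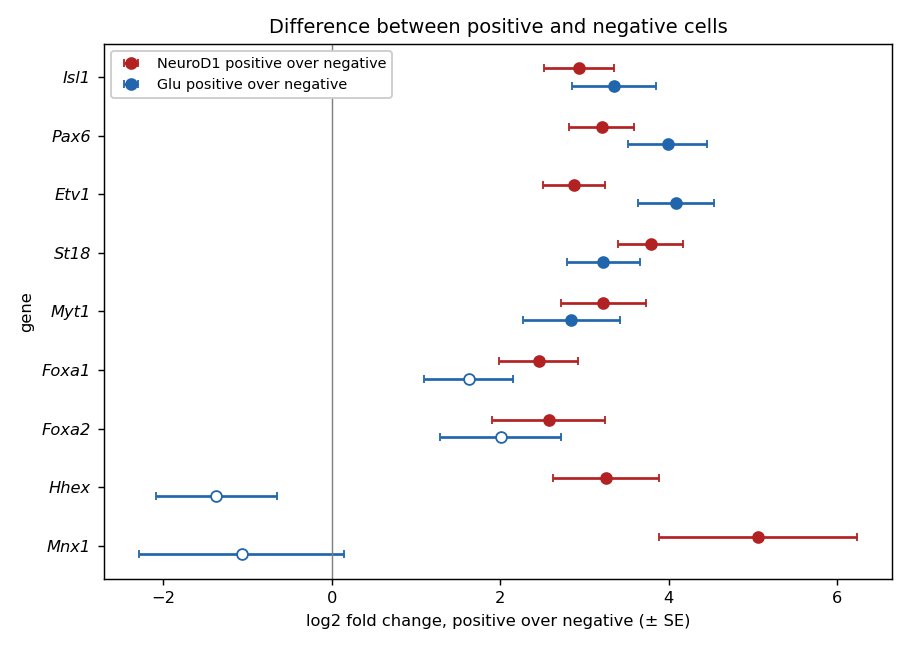
Log2 fold change of each gene in positive over negative cells, with SE bars, for the NeuroD1 strain and the Glu strain. Filled points passed an adjusted p of 0.05 in edgeR and open points did not, and Hhex at 3.26 and Mnx1 at 5.06 in the NeuroD1 strain stand at -1.37 and -1.07 in the Glu strain.

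Whether the strains differed in how far positive stood from negative cells was tested as an interaction over the 4 groups. None of the 9 genes passed in edgeR, where 0.112% of all genes did, and 3 of the 9 had an unadjusted p under 0.05. Hhex came nearest, with a NeuroD1 minus Glu difference of 4.63 ± 0.94 (adjusted p = 0.070 in edgeR), and Mnx1 had 6.13 ± 1.70 (adjusted p = 0.18 in edgeR), on few counts. For Etv1 the difference was -1.21 ± 0.52 (adjusted p = 0.41 in edgeR). DESeq2 called Hhex (4.60, adjusted p = 0.0010), as did edgeR with no filter on low counts (4.65, adjusted p = 0.00064), which also called Mnx1 (adjusted p = 0.036). In edgeR Hhex also passed without NeuroD1_positive_6361 (adjusted p = 0.037), Glu_positive_5254 (adjusted p = 0.036) or Glu_positive_5160 (adjusted p = 0.049). The other 6 genes had differences of -0.78 to 0.83, none of which passed.

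The positive populations were also set against each other. Strain, reporter and the mt-Rnr1 and mt-Rnr2 listing differ between them along with the cells sorted and cannot be told apart. Hhex and Mnx1 were called higher in NeuroD1 positive than in Glu positive cells, 2 of 9 against 3.18% of all genes, and Etv1 was called lower, against 4.95% of all genes. Every NeuroD1 positive library lay above every Glu positive one for Hhex and Mnx1, as for 11.4% of all genes. Hhex averaged 63.5 ± 31.6 CPM in NeuroD1 positive and 1.49 ± 0.803 CPM in Glu positive cells (SD, n = 3 each), a log2 fold change of 5.49 ± 0.72 (adjusted p = 0.00012 in edgeR). Mnx1 averaged 11.8 ± 2.83 CPM in NeuroD1 positive and 0.311 ± 0.0305 CPM in Glu positive cells, and its pooled count ratio was 40.7 with an exact 95% interval of 15.5 to 152 (adjusted p = 0.0096 in edgeR).

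Etv1 averaged 350 ± 21.7 CPM in NeuroD1 positive and 777 ± 422 CPM in Glu positive cells, a log2 fold change of -1.15 ± 0.34 (adjusted p = 0.043 in edgeR). The call was lost without Glu_positive_5254 or any 1 NeuroD1 positive library, but only Glu_positive_5254 moved the value far toward 0. Without Glu_positive_5254 the value was -0.61 (adjusted p = 0.19), and without any 1 of the NeuroD1 positive libraries it was -1.10 to -1.17 (adjusted p = 0.12 to 0.14), while limma voom gave adjusted p = 0.065 and the 2 populations alone gave 0.099. Glu_positive_5254, which had the highest Etv1, Isl1, St18 and Foxa1 of the Glu positives, also had 450 CPM of the leukocyte gene Ptprc and 544 CPM of the T cell gene Cd3e, against 68.2 to 95.4 and 111 to 124 CPM in the other Glu positives. The part of those cells in its levels was not tested.

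The remaining 6 genes did not pass between the positive populations. Pax6 had -0.88 ± 0.35 (adjusted p = 0.12 in edgeR) and passed without Glu_positive_4665 (-1.13, adjusted p = 0.034) and with scaling by library totals (-1.23, adjusted p = 0.045), a scaling that moved the median of all genes to -0.51. Foxa1 had 1.14 ± 0.44 and Myt1 0.68 ± 0.46, Foxa2 -0.74 ± 0.60, St18 -0.23 ± 0.34 and Isl1 0.11 ± 0.38. In the negative cells of the 2 strains none of the 9 was called by edgeR, DESeq2 or limma voom, and none had an unadjusted p under 0.05 in edgeR, where 0.488% of all genes were called. Their log2 differences, NeuroD1 negative over Glu negative, ran from -1.31 for Foxa2 to 0.86 for Hhex.

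Hormone levels are given beside Hhex and Mnx1 as values. Somatostatin (Sst) had 21849, 17003 and 39507 CPM in NeuroD1 positive libraries, against 1594, 2000 and 2083 CPM in NeuroD1 negative ones. It had 147, 177 and 87.7 CPM in Glu positive libraries, against 98.6 and 259 CPM in Glu negative ones, so that its highest levels too were in NeuroD1 positive cells. The amylin gene Iapp had 101, 140 and 254 CPM in NeuroD1 positive libraries, 5.02 to 5.64 CPM in NeuroD1 negative ones, 0.142 to 1.03 CPM in Glu positive ones and 0.840 and 0.884 CPM in Glu negative ones. NeuroD1_positive_6361 had the lowest Hhex, Mnx1, Myt1 and Sst of the NeuroD1 positives, though not the lowest Iapp.

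**Figure D3:**
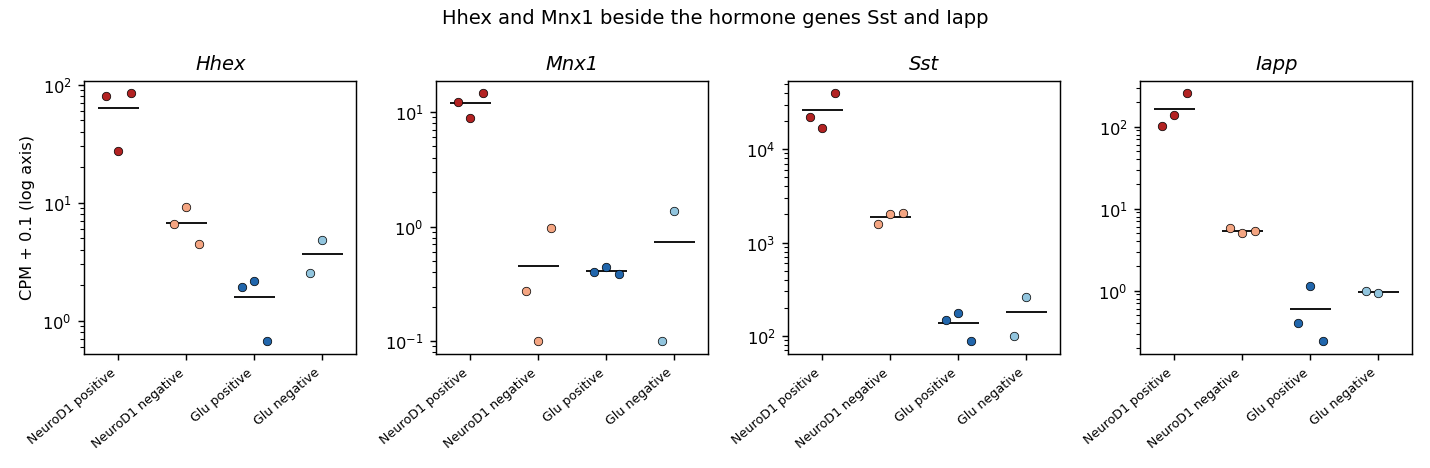
Levels of Hhex and Mnx1 beside those of Sst and Iapp, as CPM + 0.1 on a log axis, in the 11 libraries by sorted population, with bars at group means. All 4 genes are highest in NeuroD1 positive cells, where Sst lies between 17003 and 39507 CPM and Hhex between 27.1 and 84.1 CPM.

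Within related pairs the balance was read as a share of the counts of both genes in 1 library, which does not depend on scaling. Foxa1 took 77.2% to 92.7% of the Foxa1 and Foxa2 counts in NeuroD1 positive libraries, against 87.8% to 91.7% in NeuroD1 negative ones. In Glu positive libraries it took 52.9% to 80.2%, against 70.8% to 81.0% in Glu negative ones. The shares of NeuroD1 positive and Glu positive libraries overlapped, and the lowest was that of Glu_positive_4665, with 210 Foxa1 and 187 Foxa2 counts and an exact 95% interval of 47.9% to 57.9%. St18 took 60.8% to 78.6% of the St18 and Myt1 counts in NeuroD1 positive libraries, against 55.1% to 69.1% in NeuroD1 negative ones, and 67.5% to 93.1% in Glu positive libraries, against 75.2% to 79.0% in Glu negative ones. Glu_positive_5254 stood apart at 93.1% (91.5% to 94.4%). In both pairs the libraries of each positive group had intervals that did not overlap, with 1 exception. For Foxa1 those of NeuroD1_positive_6361 (89.6% to 95.1%) and NeuroD1_positive_6362 (88.8% to 93.5%) overlapped. Within each negative group, on fewer counts, the intervals overlapped.

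**Figure D4:**
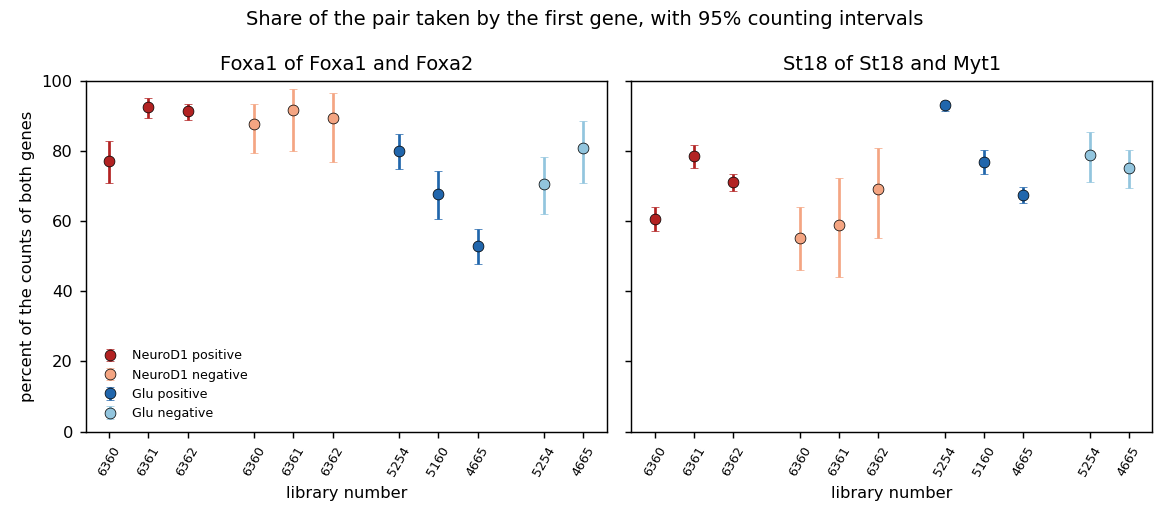
Percent of the pooled counts of 2 related genes that fell on the first, Foxa1 of Foxa1 and Foxa2 (left) and St18 of St18 and Myt1 (right), in each library, with exact 95% counting intervals. The Glu positive libraries spread from 52.9% to 80.2% for Foxa1 and from 67.5% to 93.1% for St18.

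Levels of different genes were compared as CPM per kilobase of exon. In NeuroD1 positive cells St18 (31.1), Foxa1 (30.5), Isl1 (28.1) and Etv1 (26.3 CPM per kb) came first, and neighbours among them overlapped. Pax6 (14.9), Hhex (12.6) and Myt1 (12.2) followed, and then Foxa2 (5.37) and Mnx1 (5.23 CPM per kb). Of neighbours in this order only Etv1 and Pax6, and Myt1 and Foxa2, had ranges that did not overlap. Foxa1 reached down to 17.2 CPM per kb, below the highest Pax6 (19.4), and Hhex to 5.36, below the highest Foxa2 (7.13 CPM per kb). In Glu positive cells Etv1 led (58.4), before St18 (36.5), Pax6 (27.5), Isl1 (26.1), Foxa1 (13.8), Foxa2 (8.92) and Myt1 (7.58 CPM per kb), with overlapping neighbours throughout. Hhex (0.294) and Mnx1 (0.138 CPM per kb) lay apart below them.

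By exon length the order in the negative cells differed in part from that in the positive cells. Pax6, Hhex, Myt1, Foxa2 and Mnx1 held the same places in NeuroD1 negative as in NeuroD1 positive cells. Foxa1 had the highest level in both negative populations. It had 5.57 CPM per kb in NeuroD1 negative cells, separate from Isl1 (3.68) and Etv1 (3.59 CPM per kb). In Glu negative cells it had 4.49 CPM per kb and overlapped St18 (3.90) and Etv1 (3.43 CPM per kb). Mnx1 was lowest in both, at 0.155 CPM per kb in NeuroD1 negative and 0.280 CPM per kb in Glu negative cells. Against 14151 tested genes with a known length, Isl1, St18, Foxa1 and Etv1 lay at the 92.5th to 94.0th percentile of level per kilobase in NeuroD1 positive cells. Mnx1 lay at the 63.6th percentile there and at the 3.53th in Glu positive cells, and Hhex at the 83.0th and 7.05th. The order depended on the length used, and with the longest transcript or coding sequence Etv1 came first in all 4 populations.

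**Figure D5:**
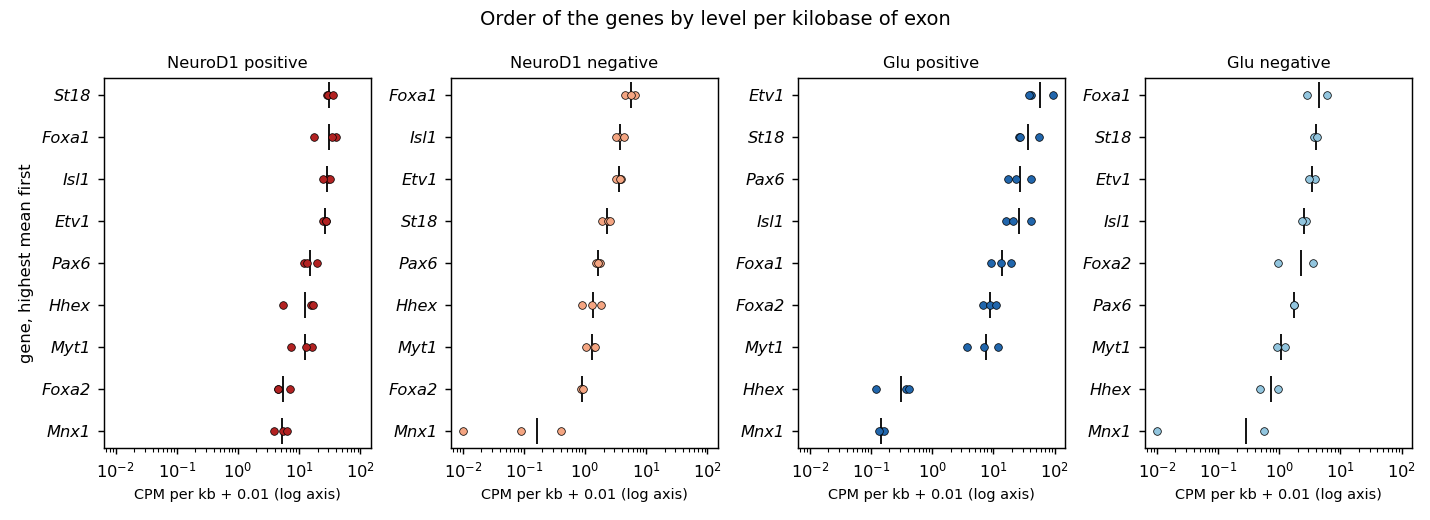
The 9 genes ranked by mean level per kilobase of exon in each population, as CPM per kb + 0.01 on a log axis. Points are libraries and bars are means, and Hhex and Mnx1 sit 1 gap below the other 7 genes in Glu positive cells, at 0.294 and 0.138 CPM per kb.

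Other endocrine transcription factors were counted from a list of 24, of which 21 were tested. In NeuroD1 positive cells 13 were higher and 1 lower, against 6.57% and 7.61% of all genes, and the median log2 fold change was 2.14, against 0.02 for all genes. In Glu positive cells 11 were higher and none lower, against 4.22% and 2.41% of all genes, with a median of 2.62, against 0.12. The largest by fold in NeuroD1 positive cells were Pax4, on 2 counts in the negatives and with a pooled ratio of 45.0 (exact 95% interval 12.1 to 377), and Lmx1a, a factor of serotonin-producing cells (4.98 ± 0.52). The call of the 1 that was lower was lost without NeuroD1_positive_6360, NeuroD1_positive_6361 or NeuroD1_negative_6362. In Glu positive cells the largest were Neurod1 (4.38 ± 0.51), Fev (4.19 ± 0.62) and Runx1t1 (4.11 ± 0.52). The count there was 7 without Glu_negative_4665.

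Between the positive populations 6 of the 21 were higher in NeuroD1 positive cells (among them Lmx1a, Nkx6-1, Neurog3, Nkx6-3 and Glis3) and 1 was lower, Insm1, against 3.18% and 4.95% of all genes. Lmx1a averaged 125 ± 32.7 CPM in NeuroD1 positive and 0.460 ± 0.134 CPM in Glu positive cells, with 1180 and 6 counts. Nkx6-1 had 30 counts over the NeuroD1 positive and 25 over the NeuroD1 negative libraries, and none over the Glu positive or Glu negative ones. Nkx6-3 averaged 5.21 CPM in NeuroD1 positive and 4.91 CPM in NeuroD1 negative cells. It averaged 0.291 CPM in Glu positive and 0.402 CPM in Glu negative cells. Neither Nkx6-1 nor Nkx6-3 was called between positive and negative cells in either strain. Lmx1a was also the 1 factor of the list that passed the interaction, at 5.88 ± 0.89 (adjusted p = 0.0066 in edgeR), and it did not pass without either Glu negative library or in limma voom. Insm1 had a log2 fold change of -1.39 ± 0.42 and, like Etv1, fell short without Glu_positive_5254 (-0.62, adjusted p = 0.29) or without any 1 NeuroD1 positive library, and also without mt-Rnr1 and mt-Rnr2 (-1.35, adjusted p = 0.054). Without NeuroD1_positive_6361 the list had 3 factors called higher, and Nkx6-3 lost its call without any 1 positive library other than Glu_positive_4665 (3.40 to 3.95, adjusted p = 0.053 to 0.070).

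Relatives and partners of the 9 genes were read from a list of 13, of which 11 were tested. Lhx1, a LIM-homeodomain relative of Isl1, rose in both strains. It averaged 33.5 ± 16.8 CPM in NeuroD1 positive and 0.706 ± 0.705 CPM in NeuroD1 negative cells, a log2 fold change of 5.77 ± 0.92. In Glu positive cells Lhx1 averaged 11.6 ± 6.02 CPM, against 0.623 ± 0.683 CPM in Glu negative cells (4.28 ± 1.00), and this call was lost without Glu_negative_4665 (3.40, adjusted p = 0.20). Pax4, given above, was also higher in NeuroD1 positive cells.

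Isl2 was at 0 in every library and Ldb2 was below the filter. Foxa3 had 1.91 ± 0.67 in the NeuroD1 strain (adjusted p = 0.063 in edgeR), Etv5 had 1.08 ± 0.54 and Myt1l -0.09 ± 0.95, and these did not pass there. Between the positive populations Etv4, an ETS relative of Etv1, was higher in NeuroD1 positive cells, with 71 counts against 3 and a pooled ratio of 31.1 (exact 95% interval 10.2 to 154). No gene of the list was higher there without NeuroD1_positive_6360 or NeuroD1_positive_6361. Ldb1, a cofactor of LIM proteins, was called lower (-2.96 ± 0.86) although the groups overlapped, with 18.7 to 33.9 CPM in NeuroD1 positive libraries, against 573, 22.7 and 20.2 CPM in Glu positive ones. Without Glu_positive_5254 its value was 0.29 (adjusted p = 0.76), and the call was also lost without any 1 NeuroD1 positive library (adjusted p = 0.095 to 0.14).

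Genes with the most similar pattern were taken as the 3 with the highest Pearson r of log2 CPM over the 11 libraries, among genes with a mean log2 CPM of at least 3. The libraries fall into separate groups, so r describes the pattern over groups and libraries together and is no relation within a group. Isl1 was most like Slc25a35 (r = 0.99), Rfx3 and Fev. Pax6 was most like the calcium exchanger Slc8a1 (r = 0.99), Nbea and the potassium channel Kcnb2, and Etv1 most like Rev3l (r = 0.99), Adcy2 and Rfx6. St18 was most like Adgrg4 (r = 0.99), Ndrg1 and the prohormone-processing enzyme Cpe. Foxa1 was most like Cd24a (r = 0.96), Qpct and Arc, Foxa2 most like Gfra3 (r = 0.94), Nr4a2 and Tox, and Myt1 most like Pla2g12a (r = 0.98), Steap2 and Maged1.

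Hhex and Mnx1 had other neighbours. Hhex was most like Th (r = 0.97), the enzyme that starts catecholamine synthesis, Iapp (r = 0.96) and Tpbg (r = 0.96). Th averaged 36.4 ± 18.9 CPM in NeuroD1 positive and 1.35 ± 0.141 CPM in NeuroD1 negative cells. It averaged 0.230 ± 0.398 CPM in Glu positive and 0.490 ± 0.693 CPM in Glu negative cells. Mnx1 was most like mt-Rnr2 (r = 0.95), which is listed at 0 in every library but the NeuroD1 positive ones, Alb (r = 0.95) and the ion channel Asic5 (r = 0.95).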

How the data were processed

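Per the labels' protocols, RNA of sorted duodenal cells was amplified with the Ovation kit before sequencing. TopHat2 2.1.0, Cufflinks 2.2.1, CASAVA and build GRCm38 are listed, without roles, per the submitters' processing notes. The authors deposited 1 table of estimated counts per gene (expected counts), made before deposit by a counting step that no header describes, with values that are not whole in 848 genes. They were rounded here. How the counting treated strand and shared reads is not given in the sources used here.

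Symbols and coordinates for 36341 genes came from GENCODE vM21, of the same build, and promoters from RefSeq. edgeR 4.0.16 in R 4.3.3 kept 14332 genes (filterByExpr), scaled by TMM and tested 5 contrasts over 4 group means of all 11 libraries. Alternatives were RLE scaling, library totals, leaving out mt-Rnr1 and mt-Rnr2, no filter or at least 1 CPM in 3 libraries, DESeq2 1.42.0, limma 3.58.1 voom, the compared groups alone, a library block and each library left out. The fit was tested on simulated counts. Intervals are exact (Clopper-Pearson, 95%). They and the limit of 3 counts given for a count of 0 cover counting error alone, because the RNA was amplified and no tagging of molecules is described.

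The 9 genes and all lists were chosen with earlier results of these data known. The text names all 9, the reporter genes, up to 3 called factors per direction of the endocrine list by size of change (or all where a count was small, then chosen after their values were seen), relatives of the 9, hormone genes as levels only and the 3 genes most alike in pattern. Some listed genes count in the totals but are not reported here by name. Similar genes needed a mean log2 CPM of at least 3 and were compared with a prior count of 2. All replicate pairs differed beyond sampling noise (chi-square per degree of freedom 15.3 to 135), so none was merged.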

Additional observations from a re-analysis of the deposited data

Results flagged for a closer look

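Hhex was the 1 gene of the 9 whose libraries separated in opposite directions in the strains, with every NeuroD1 positive library (27.1 to 84.1 CPM) above every NeuroD1 negative one (4.37 to 9.04 CPM) and every Glu positive library (0.570 to 2.07 CPM) below every Glu negative one (2.43 and 4.76 CPM). The difference between the log2 fold changes, NeuroD1 minus Glu, was 4.63 and did not pass in edgeR's interaction test (adjusted p = 0.070), while it passed in DESeq2 (adjusted p = 0.0010). Over all alternatives that left out a library it was 4.07 to 5.04. Summed endothelial markers were lower in the positive cells of each strain, and their part was not tested. The Glu positive value rests on 16 counts over 3 libraries. The share of all genes that separate in opposite directions was not counted, so how unusual this pattern is cannot be said.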

How the results depend on the processing

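Of 673 values of the 9 genes under the alternatives, 635 kept their direction and their side of the threshold, 13 lost the threshold, 12 passed it and 13 turned sign, with 0 such turns among calls. When each library was left out in turn, 8 to 9 of the 9 genes were called in the NeuroD1 comparison, 4 to 6 in the Glu comparison, 2 to 4 between the positive populations, 0 between the negatives and 0 to 1 in the interaction. The interaction called 2 genes with no filter and 1 in DESeq2. Sign changes with library totals, which moved the median of all genes to -0.51 between the positive and -0.39 between the negative populations, were Isl1 between the positives (-0.18) and Etv1 (-0.33), Foxa1 (-0.08) and Myt1 (-0.06) between the negatives. With a library left out Mnx1 in the Glu strain ran from -1.92 to 3.36, Mnx1 between the negatives from -2.22 to 3.42, Isl1 from -0.13 to 0.59 and St18 from -0.41 to 0.20 between the positives, Etv1 from -0.10 to 0.21 and Foxa1 from -0.15 to 0.93 between the negatives, and Isl1 from -0.65 to 0.07 and Foxa2 from -0.65 to 1.24 in the interaction. The cause was not tested, except that Mnx1 has 0 counts in Glu_negative_5254, the lone Glu negative once Glu_negative_4665 is left out, a library whose spread is then borrowed from the other groups.

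The order by level kept 4 genes at their rank with the longest transcript and 2 with the longest coding sequence in NeuroD1 positive cells, 4 and 3 in NeuroD1 negative, 6 and 4 in Glu positive and 3 and 2 in Glu negative cells. Deviations of same-numbered positive and negative libraries from their group means correlated at 0.01 to 0.05, and those of differently numbered ones at -0.04 to 0.02. With so few libraries per group these values cannot show whether a shared number pairs libraries. The number was left out of the main fit because no label says what it marks. With the library number as a block 9 genes were called in the NeuroD1 comparison, 5 in the Glu comparison and 0 in the interaction, and no call of the 9 genes changed. No paired analysis was possible between the strains because their libraries share no number.

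Over all genes the counts behind the background shares moved more. Library totals gave 634 higher and 1376 lower in the NeuroD1 comparison (941 and 1090 with TMM), 360 and 489 in Glu (605 and 346), 283 and 1183 between the positives (456 and 709), 46 and 38 between the negatives (52 and 18) and 14 and 11 in the interaction (13 and 3). With no filter, in DESeq2 and with the compared groups alone, Glu called 1551, 1542 and 340 genes (951 with the filter, in edgeR and over all groups), the positives 1902, 1830 and 565 (1165, and 646 in voom) and the negatives 245, 170 and 123 (70). The interaction called 338 with no filter, 175 in DESeq2 and 8 in voom (16). With a library left out the counts were 1301 to 1498 in the NeuroD1 comparison (2031 with all), 187 to 1126 in Glu, 569 to 2182 between the positives, 27 to 54 between the negatives and 5 to 52 in the interaction. Mnx1 outside NeuroD1 positive cells, Hhex in Glu cells and Foxa2 in negative cells are limited by depth, with 4, 16 and 21 counts over the Glu positive, Glu positive and NeuroD1 negative libraries.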
